A study of Mus musculus with 48 samples.

Results

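Neat1, Malat1, Meg3, Gas5, Snhg1, Snhg8, Snhg11 and Snhg12 are 8 mouse genes whose main products are long non-coding RNAs (lncRNAs) that act in the nucleus or that carry small nucleolar RNAs (snoRNAs) in their introns. They were taken by symbol from the 58913 genes listed for each library, and all 8 were found. Heat-stressed dams were lactating ICR mice, an outbred albino stock, aged 10 weeks and on day 13 of lactation, kept at 36 °C, and control dams were of the same strain, age and lactation day, kept at 25 °C; both groups were at 55% relative humidity. The labels give no length of exposure and name no transgene, drug or genotype. Hypothalamus, pituitary and the left number 4 mammary gland were taken right after the treatment, and total RNA of each was sequenced in 8 heat and 8 control libraries per tissue, 48 libraries in all. Levels are deposited FPKM, which adjust for gene length, so that levels of different genes can be set beside each other. Between libraries these values do not follow sequencing depth alone. In heat hypothalamus library 1, with 19727285 fragments on annotated genes, 1 fragment on 1 kilobase of exon stood for 0.0390 FPKM. In heat mammary gland library 1, with 13610802 fragments, it stood for 0.177 FPKM.

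Neat1 RNA is the scaffold of paraspeckles, nuclear bodies that assemble on it together with RNA-binding proteins such as Sfpq, Nono, Pspc1 and Rbm14, and that change under several kinds of cell stress, heat among them. Malat1, its neighbour on the same chromosome, gives a very abundant RNA that gathers in nuclear speckles, where splicing factors are stored. Meg3 is a maternally expressed lncRNA of the imprinted Dlk1-Dio3 region and is known from brain and pituitary. Gas5 and the Snhg genes are snoRNA hosts: the introns yield snoRNAs that guide chemical modification of ribosomal RNA, while many spliced host transcripts are short-lived targets of nonsense-mediated decay (NMD). Several host genes are known to start with a run of pyrimidines, as the genes of ribosomal proteins do, and Gas5 RNA builds up when growth stops and translation slows. Snhg11 is known as a host RNA rich in neurons, and GENCODE M21 lists it as protein-coding.

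RefSeq (build GRCm38.p6) listed 9 transcription starts for 7 of the 8 genes, all but Neat1. The windows below run from 30 bases before to 50 bases from the listed start. They are shown because a run of pyrimidines at the start is the feature that host genes are known to share with ribosomal protein genes, which Snhg8 was most like in these libraries (values further on); Snhg11 and Malat1 stand for contrast. Capitals mark the longest unbroken run of C and T within 30 bases on either side of the start.
Snhg1, chr19:8723457-8723536, plus strand: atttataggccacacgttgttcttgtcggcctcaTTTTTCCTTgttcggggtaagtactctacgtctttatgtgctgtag
Snhg8, chr3:123508287-123508366, minus strand: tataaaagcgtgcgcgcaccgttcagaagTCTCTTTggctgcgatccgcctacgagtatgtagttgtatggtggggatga
Snhg12, chr4:132308648-132308727, plus strand: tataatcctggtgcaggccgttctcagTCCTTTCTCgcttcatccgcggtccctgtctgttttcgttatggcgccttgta
Gas5, the second listed start, chr1:161035136-161035215, plus strand: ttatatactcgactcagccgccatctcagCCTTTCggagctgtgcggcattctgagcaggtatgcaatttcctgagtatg
Snhg11, chr2:158375683-158375762, plus strand: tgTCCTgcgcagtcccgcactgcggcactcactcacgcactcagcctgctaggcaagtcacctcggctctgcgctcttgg
Malat1, chr19:5802623-5802702, minus strand: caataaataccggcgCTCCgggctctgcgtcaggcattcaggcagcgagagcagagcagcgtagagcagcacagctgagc
The run was 9 bases long in Snhg1 and in Snhg12, 7 in Snhg8 and 6 at the second Gas5 start, and 4 bases long in Snhg11 and Malat1. At the first listed Gas5 start, not shown, it was 3. Its first base lay 1 base before the start base in Snhg8 and at the second Gas5 start, 3 bases before it in Snhg12, and 4 bases past it in Snhg1. Among all 32851 RefSeq promoters of this length, 15.6% had a run of at least 9, 33.8% one of at least 7, 49.6% one of at least 6 and 88.4% one of at least 4, so the runs of Snhg1 and Snhg12 were the less common ones. Both strands of each whole 300-base promoter were searched for a heat shock element, written as GAA, TTC and GAA with 2 bases between neighbours. It was present at 0 of the 9 starts, against 0.603% of all promoters, so this does not set the starts apart. Neat1 had no listed start and was not searched. The cAMP response element TGACGTCA was present at 2 of the 9 starts, in Meg3 and at the second Gas5 start, against 1.79% of all promoters, and TATAAA at 3, in Meg3, Snhg1 and Snhg8, against 13.6%.

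Fragments on annotated genes numbered 16270599 to 22160123 per hypothalamus library, 10891486 to 17244273 per library of pituitary, and 11585872 to 17808028 per library of mammary gland. Hspa1b, an inducible HSP70 chaperone gene that checks the treatment, averaged 43.7 ± 28.7 FPKM in heat and 4.89 ± 1.66 FPKM in control hypothalamus, 286 ± 188 FPKM in heat and 3.67 ± 1.53 FPKM in control pituitary, and 413 ± 283 FPKM in heat and 6.23 ± 2.93 FPKM in control mammary gland (SD, n = 8 each). Dnajb1, an HSP40 co-chaperone gene, changed by 1.67, 2.51 and 2.74 on the log2 scale (limma, adjusted p under 0.05 in each tissue). The libraries fell into 2 sets in both treatments, numbers 1 to 3 and numbers 4 to 8, and the labels give nothing that separates them. The summed FPKM of 12 lymphocyte markers in mammary gland ran from 4.11 to 131 in heat and from 4.09 to 92.3 in control libraries, high in heat libraries 4, 5, 6 and 8 and in control library 5. That of 8 neurointermediate lobe markers in pituitary ran from 18.8 to 384 in heat and from 2.96 to 171 in control libraries. The defining markers of neurons in hypothalamus, of anterior pituitary cells in pituitary and of milk-producing epithelium in mammary gland were all present in their own tissue.

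No tested gene of the 8 differed between heat and control in any tissue at an adjusted p under 0.05 (limma on log2(FPKM + 1), Benjamini-Hochberg adjustment over all genes with a mean of at least 1 FPKM). In hypothalamus 0 of 7 passed, where 0.681% of the 13957 genes tested did; in pituitary 0 of 7, where 3.79% of 14095 did; and in mammary gland 0 of 6, where 5.31% of 12587 did. Meg3 was below the filter everywhere and Snhg11 in mammary gland. At an unadjusted p under 0.05 there was 1 gene in hypothalamus, Neat1, 2 in pituitary, Neat1 and Malat1, and 0 in mammary gland, and an exact Wilcoxon test and limma-voom on fragments also called 0 in each tissue. The median log2 difference over the tested genes was −0.01, −0.01 and 0.03, against 0.00, 0.00 and −0.01 over all genes tested. Among all called genes 62.5% were higher in pituitary and 53.4% in mammary gland. With FPKM per library total these shares were 20.3% and 65.1%, and the median over all genes in pituitary was −0.10. FPKM per library total means fragments per kilobase of exon divided by the library's own fragments on annotated genes, which is scaling by depth. These are whole tissues, in which fewer cells of a type and less RNA per cell cannot be told apart.

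**Figure D1:**
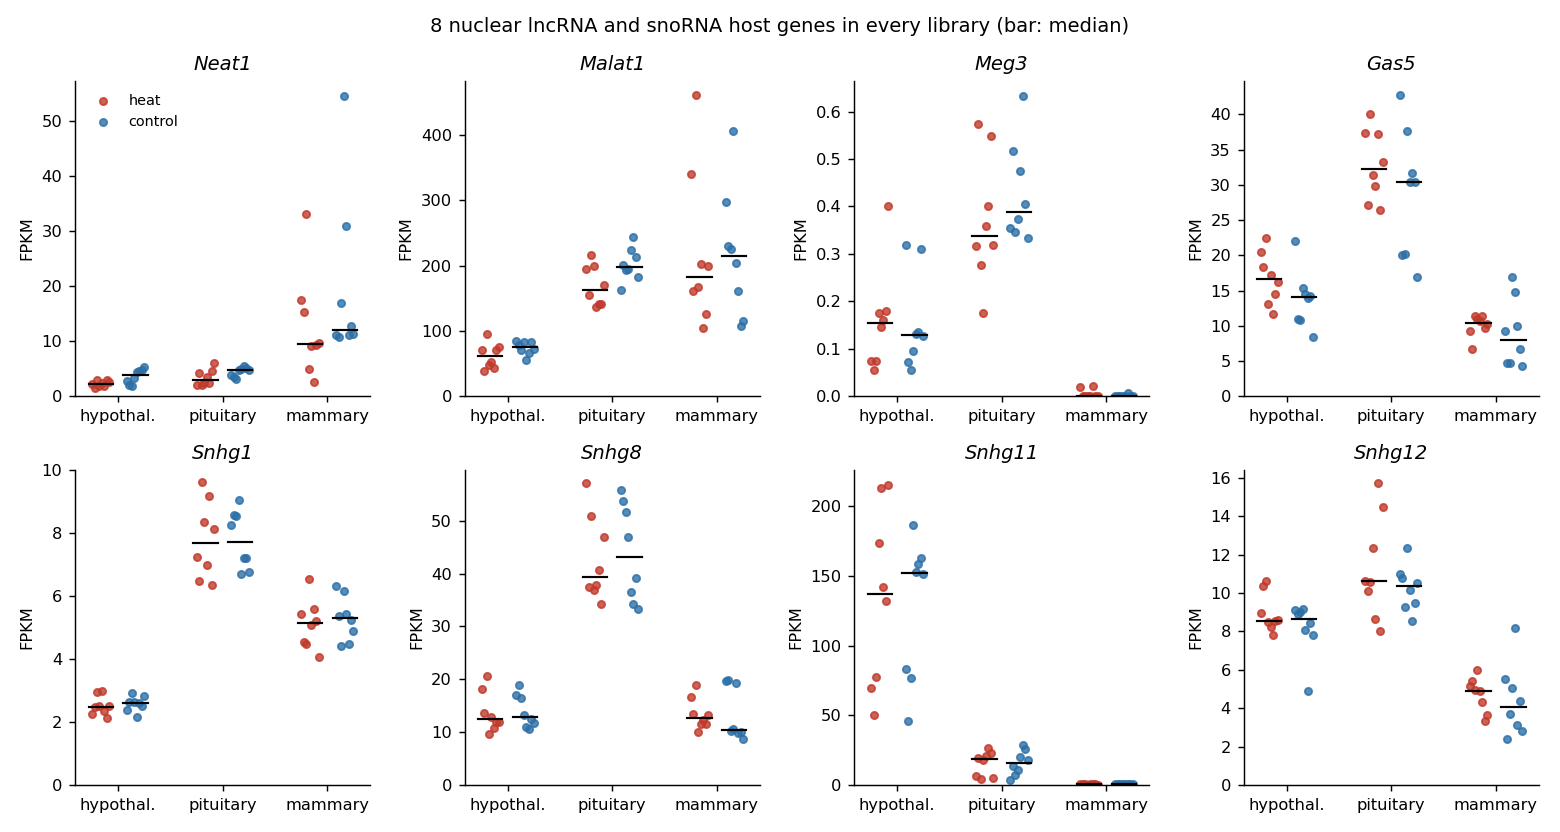
FPKM of the 8 genes in all 48 libraries, 1 panel per gene; points are libraries, heat (red) left of control (blue) in each tissue, bars are medians, and each panel has its own axis. Heat and control points overlap in every panel, while Snhg11 is high in hypothalamus, Gas5, Snhg1 and Snhg8 are high in pituitary, and Neat1 in mammary gland reaches 54.6 FPKM in 1 control library.

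Neat1 was the gene nearest to a call in hypothalamus. Its lowest, median and highest levels were 1.47, 2.23 and 2.93 FPKM in heat libraries, against 1.93, 3.85 and 5.24 FPKM in control libraries. All 8 heat libraries lay below the control median, yet the groups overlapped, because control libraries 1 to 3 (2.85, 2.09 and 1.93 FPKM) were as low as the heat libraries. The log2 difference was −0.45 ± 0.16 (SE; 95% confidence interval −0.79 to −0.12; adjusted p = 0.300). It was −0.06 (adjusted p = 0.937) among libraries numbered 1 to 3 and −0.70 (adjusted p = 0.0123) among those numbered 4 to 8, so the call depends on which libraries are compared. It also passed with limma's array weights (−0.58, adjusted p = 0.0057) and with a neuron marker score in the model (−0.49, adjusted p = 0.0408). Of all genes, 1160 and 358 passed in these settings and 422 in numbers 4 to 8 alone, against 95 in the main fit. The 8 neuron markers summed to 356 to 469 FPKM in heat and to 338 to 474 FPKM in control libraries. The range of its adjusted p over these and the other alternatives was 0.0057 to 1.

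In pituitary Neat1 had a lowest, median and highest level of 1.97, 2.97 and 5.95 FPKM in heat and of 3.21, 4.70 and 5.56 FPKM in control libraries. The heat libraries spread wider and 7 of 8 lay below the control median, with a difference of −0.36 ± 0.16 (−0.70 to −0.02; adjusted p = 0.276). In mammary gland the levels were 2.63, 9.48 and 33.0 FPKM in heat and 10.8, 12.1 and 54.6 FPKM in control libraries, a difference of −0.64 ± 0.42 (−1.53 to 0.25; adjusted p = 0.399). The value rested on few libraries: control libraries 4 and 5 had 54.6 and 30.8 FPKM while the other controls had 10.8 to 16.9. Without these the difference was −0.22 (adjusted p = 0.789). The 4 heat libraries rich in lymphocyte markers had 4.93, 9.12, 2.63 and 9.62 FPKM and the other heat libraries 17.4, 15.3, 33.0 and 9.34. Without the 5 marker-rich libraries the difference was 0.15 (adjusted p = 0.935). Among libraries numbered 1 to 3 it was 0.67 and among those numbered 4 to 8 it was −1.43 (adjusted p = 0.445 and 0.123). With a lymphocyte marker score in the model the difference kept its negative sign and was not called. What part of these values is lymphocyte RNA was not tested.

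Malat1 was the most abundant of the 8 in pituitary and mammary gland. In hypothalamus its lowest, median and highest levels were 38.3, 61.3 and 95.8 FPKM in heat and 54.9, 75.4 and 84.3 FPKM in control libraries, a log2 difference of −0.29 ± 0.16 (−0.63 to 0.05; adjusted p = 0.736). In pituitary they were 136, 163 and 216 FPKM in heat and 163, 198 and 243 FPKM in control libraries, a difference of −0.25 ± 0.11 (−0.49 to −0.01; adjusted p = 0.281). Of the 8 heat libraries 6 lay below the control median in pituitary. With array weights the difference passed (−0.37, adjusted p = 0.0284), as did 1399 of all genes, against 534 without weights. The other alternatives gave adjusted p-values above 0.05. In mammary gland the groups overlapped over nearly their whole range, 105, 183 and 462 FPKM in heat and 107, 214 and 406 FPKM in control libraries, with a difference of −0.00 ± 0.31 (−0.67 to 0.66; adjusted p = 1.00).

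Meg3 had low FPKM in every tissue. It averaged 0.158 ± 0.110 FPKM in heat and 0.156 ± 0.102 in control hypothalamus, and 0.371 ± 0.134 in heat and 0.430 ± 0.104 in control pituitary (SD, n = 8 each). These levels stood on 568 and 573 fragments over the 8 libraries in hypothalamus and on 1225 and 1543 in pituitary, so the gene was detected in each of these libraries but at a low level. In mammary gland 4 fragments fell in the heat and 1 in the control libraries, and 6 of 8 heat and 7 of 8 control libraries were at 0. A count of 3 fragments of Meg3 corresponds to 0.0058 to 0.033 FPKM, depending on the library, and this limit covers counting error only. Of its exon bases 8.29% are shared with other annotated genes, and the gene lists also hold 5448 loci without annotation. Whether reads of Meg3 were assigned elsewhere was not tested, so the low FPKM does not show that its RNA was scarce. With no filter on low values, adjusted p was 1.00, 0.742 and 0.800 in the 3 tissues. The neighbouring genes of the Dlk1-Dio3 region did not share 1 level. Rian, another maternal lncRNA, averaged 0.0504 FPKM in heat and 0.0497 in control hypothalamus, and 0.199 and 0.200 in pituitary, whereas Mirg, a microRNA host of the same region, averaged 5.31 and 4.45 in hypothalamus and 21.02 and 14.4 in pituitary (log2 difference there 0.45 ± 0.29, adjusted p = 0.476). Dlk1, the paternally expressed growth regulator, reached at most 0.304 FPKM in any library. Of the 6 genes of this list 2 passed the filter in hypothalamus and in pituitary, Mirg and Begain, and 0 rose or fell.

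Gas5 had a positive mean difference in all 3 tissues, with no call. In hypothalamus its lowest, median and highest levels were 11.6, 16.7 and 22.4 FPKM in heat and 8.45, 14.1 and 22.1 FPKM in control libraries (log2 difference 0.30 ± 0.16; −0.04 to 0.64; adjusted p = 0.689). In pituitary they were 26.4, 32.3 and 40.1 FPKM in heat and 17.0, 30.4 and 42.8 FPKM in control libraries (0.25 ± 0.17; −0.12 to 0.61; adjusted p = 0.518). In mammary gland they were 6.68, 10.4 and 11.4 FPKM in heat and 4.26, 7.99 and 16.9 FPKM in control libraries (0.30 ± 0.24; −0.21 to 0.80; adjusted p = 0.517). In each tissue both the lowest and, but for hypothalamus, the highest level was in a control library. In mammary gland the SD was 1.55 FPKM in heat and 4.79 FPKM in control libraries, and without control libraries 4 and 5 the difference was 0.60 with adjusted p = 0.0659.

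The Snhg genes lay close to no difference, with intervals of unequal width. Snhg1, which hosts 8 snoRNA genes, averaged 2.52 FPKM in heat and 2.57 FPKM in control hypothalamus (2.12 to 2.97 against 2.14 to 2.91), 7.79 FPKM in heat and 7.78 FPKM in control pituitary (6.33 to 9.63 against 6.68 to 9.05), and 5.11 FPKM in heat and 5.29 FPKM in control mammary gland (4.05 to 6.52 against 4.397 to 6.32). Its log2 differences were −0.01 (−0.14 to 0.12), 0.01 (−0.19 to 0.21) and −0.03 (−0.22 to 0.16), the narrowest intervals among the genes that passed the filter in each tissue. Snhg8 differed by −0.02 (−0.33 to 0.30), −0.01 (−0.31 to 0.28) and 0.06 (−0.33 to 0.45), with means of 13.7 and 13.9, 42.8 and 43.9, and 13.4 and 13.5 FPKM in heat and control libraries. Snhg12 had 8.95 and 8.18, 11.3 and 10.3, and 4.70 and 4.39 FPKM in heat and control libraries and log2 differences of 0.15 (−0.07 to 0.36), 0.12 (−0.13 to 0.37) and 0.15 (−0.23 to 0.53). Snhg11 had 134 ± 64.3 and 127 ± 50.9 FPKM in heat and control hypothalamus and 15.5 ± 8.78 and 15.8 ± 8.85 in pituitary, with differences of 0.06 (−0.67 to 0.79) and −0.02 (−0.93 to 0.88). These intervals are the widest among the hosts, and they do not show that Snhg11 was alike in heat and control libraries. In mammary gland it had 0.434 ± 0.169 FPKM in heat and 0.649 ± 0.230 in control libraries, from 191 and 294 fragments, and adjusted p was 0.444 with no filter.

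**Figure D2:**
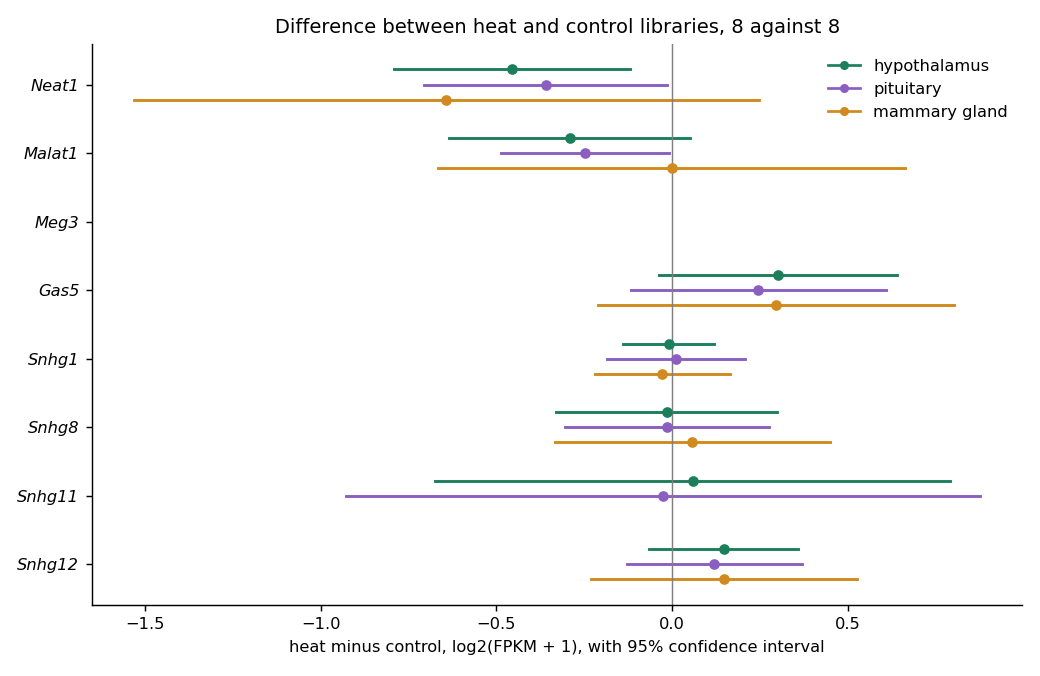
Difference between 8 heat and 8 control libraries on the log2(FPKM + 1) scale for each gene and tissue, with its 95% confidence interval; Meg3, and Snhg11 in mammary gland, were below the filter and have no point. Snhg1 has the narrowest intervals and Snhg11 in pituitary (−0.93 to 0.88) and Neat1 in mammary gland (−1.53 to 0.25) the widest.

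Whether the heat difference varied between tissues was tested over all 48 libraries. No gene of the 7 passed, either in the F test, where 2.1% of 14884 genes did (313 genes, and 766 with the replicate number as a block, again 0 of the 7), or in the comparison of any tissue pair (pituitary minus hypothalamus 0.168%, mammary gland minus hypothalamus 1.53%, mammary gland minus pituitary 2.23% of genes). For Neat1 the change in mammary gland minus that in hypothalamus was −0.19 with an interval of −1.01 to 0.64, which does not show that the changes were alike.

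Between tissues the genes had clear differences of level, read here in the 24 control libraries. Pituitary exceeded hypothalamus for 4 of 7 tested genes and was lower for 1, mammary gland exceeded hypothalamus for 3 and was lower for 3, and mammary gland exceeded pituitary for 1 and was lower for 5. Most genes differed between these tissues: of 14787 genes 73.1% passed for pituitary minus hypothalamus (32.3% higher, 40.8% lower), 83.9% for mammary gland minus hypothalamus (38.2% higher, 45.7% lower) and 80.7% for mammary gland minus pituitary (37.2% higher, 43.5% lower), so calls of this kind do not single out the 8. Snhg11 had the widest range of level: 0.308 to 0.975 FPKM in mammary gland, 3.44 to 28.5 in pituitary and 45.7 to 187 in hypothalamus, with log2 differences of −3.04 ± 0.32 for pituitary minus hypothalamus and −6.15 ± 0.32 for mammary gland minus hypothalamus. The 3 sets of libraries did not overlap. The summed FPKM of 8 neuron markers had the same order in control libraries, 0.104 to 0.434 in mammary gland, 53.8 to 68.3 in pituitary and 338 to 474 in hypothalamus.

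Snhg8, Gas5 and Snhg1 were highest in pituitary. Snhg8 had 33.3 to 55.8 FPKM there, against 10.7 to 18.9 in hypothalamus, a log2 difference of 1.58 ± 0.18. Gas5 had 17.0 to 42.8 against 8.45 to 22.1 FPKM (0.99 ± 0.25), and Snhg1 6.68 to 9.05 against 2.14 to 2.91 FPKM (1.28 ± 0.07). Snhg12 differed by 0.30 ± 0.15 in this comparison (adjusted p = 0.0880), by 0.57 with quantile normalization (adjusted p = 0.0011), and by the same 0.30 with the replicate number as a block (adjusted p = 0.0467), with 8.52 to 12.3 FPKM in pituitary and 4.88 to 9.18 in hypothalamus. Mammary gland was lower than pituitary for Snhg8 (−1.66), Gas5 (−1.65), Snhg12 (−1.11) and Snhg1 (−0.47). With FPKM per library total, scaled by each library's own fragments on annotated genes, these were −3.44, −3.34, −2.65 and −2.06.

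Sizes of the mammary differences depended on the scaling for every gene, and for Malat1, Neat1, Snhg1 and Snhg8 so did a call or a direction. Malat1 had 107 to 406 FPKM in mammary gland, 163 to 243 in pituitary and 54.9 to 84.3 in hypothalamus, and after division by the median ratios the log2 differences were 1.43 ± 0.19 for mammary gland minus hypothalamus, 1.42 ± 0.19 for pituitary minus hypothalamus and 0.01 ± 0.19 for mammary gland minus pituitary. As a share of each control library's own fragments it took 694 ± 398 fragments per 1000000 in mammary gland, 2361 ± 284 in pituitary and 679 ± 92.1 in hypothalamus (SD, n = 8 each). With FPKM per library total the differences were −0.11, 1.79 and −1.90. The rise over hypothalamus thus kept its sign in pituitary, and in mammary gland it was no longer seen (limma, adjusted p = 0.60). Neat1, with 10.8 to 54.6 FPKM in mammary gland, 3.21 to 5.56 in pituitary and 1.93 to 5.24 in hypothalamus, differed by 1.98 ± 0.26 for mammary gland minus hypothalamus and by 1.72 ± 0.26 for mammary gland minus pituitary. Per library total these were 0.62 (adjusted p = 0.0451) and 0.03 (adjusted p = 0.925). Snhg1 in mammary gland minus hypothalamus turned past the threshold, 0.81 against −0.38 per library total (adjusted p = 0.00023). Snhg8 in the same comparison had −0.08 (adjusted p = 0.68) against −1.48 per library total (adjusted p = 1.8e-09). The 9 epithelial markers of mammary gland, milk protein genes among them, summed to 104173 to 198956 FPKM in its control libraries. Per library total the median of all genes moved to −1.19 for mammary gland minus hypothalamus and −1.42 for mammary gland minus pituitary, against −0.11 and −0.07, and the share of higher genes among those called to 15.2% and 9.88%, against 45.5% and 46.1%. For pituitary minus hypothalamus the median moved to 0.20, against −0.05, and that share to 61.3%, against 44.2% (54.6% with quantile normalization).

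Snhg11 and Snhg8 separated by library number in hypothalamus, where the treatments overlapped. There Snhg11 had 45.7 to 83.1 FPKM in the 6 libraries numbered 1 to 3 and 132 to 215 in the 10 numbered 4 to 8, heat and control alike, and these ranges did not overlap. Snhg8 ran the other way, 13.5 to 20.6 FPKM in numbers 1 to 3 and 9.59 to 13.2 in numbers 4 to 8, with a small gap. The share of all genes that separated by library number is not given here, so the separation does not set these genes apart. The neuron markers summed to 405 to 474 FPKM in numbers 1 to 3 and to 338 to 383 FPKM in numbers 4 to 8, the opposite order to Snhg11. What part of this lies in the tissue taken was not tested. In pituitary the libraries low in Snhg11 were high in Snhg8, and after removal of the means of treatment and library set r was −0.71 over 16 libraries, against 0.36 in hypothalamus, given as descriptions since the libraries form separate clusters. The lowest Snhg11 levels in pituitary were 3.44 FPKM in control library 1, 4.51 in heat library 3 and 5.05 in heat library 8. The first 2 were also the libraries lowest in neurointermediate lobe markers, and heat library 8 was not.

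**Figure D3:**
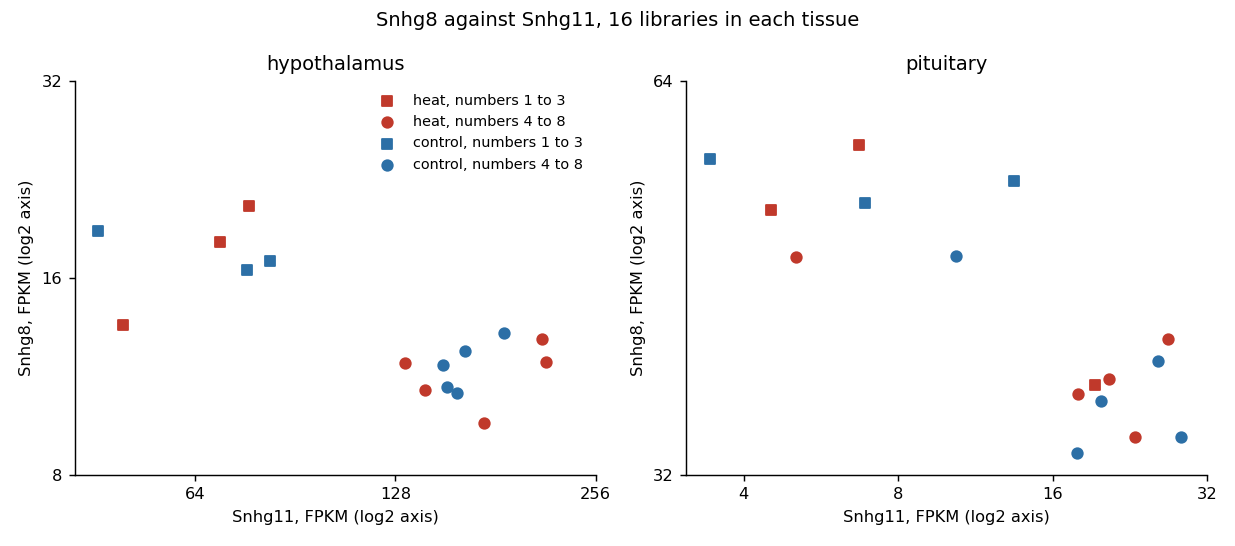
Snhg8 against Snhg11 in hypothalamus (left) and pituitary (right), FPKM on log2 axes; points are the 16 libraries of a tissue, red heat and blue control, squares numbers 1 to 3 and circles numbers 4 to 8. In hypothalamus squares and circles form separate groups (Snhg11 45.7 to 83.1 and 132 to 215 FPKM) in which both treatments are mixed. In pituitary the libraries low in Snhg11 lie high in Snhg8, in both treatments.

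Gas5 levels went with the library number across tissues, more plainly in control than in heat libraries. Control libraries 2, 3 and 8 had the 3 lowest levels in all 3 tissues: hypothalamus had 10.9, 10.8 and 8.45 FPKM, pituitary had 20.1, 20.2 and 17.0 FPKM, and mammary gland had 4.78, 4.72 and 4.26 FPKM. Control library 1 was the highest in hypothalamus and pituitary, with 22.1 and 42.8 FPKM. Control library 4 was the highest in mammary gland, with 16.9 FPKM, and the second highest in the other tissues. Heat library 3 was the highest heat library in all 3 tissues (22.4, 40.1 and 11.4 FPKM). Heat library 6 was the lowest in hypothalamus (11.6 FPKM) but among the high ones in pituitary and mammary gland (37.2 and 11.3 FPKM). Heat library 2 had 18.4 FPKM in hypothalamus and the lowest heat level in mammary gland (6.68 FPKM). The correlations below are over both treatments. The labels do not say that the same number marks the same dam in different tissues, though they say that all 3 tissues were taken from every dam. After removal of the means of treatment and library set, same-numbered libraries correlated with r = 0.83 between pituitary and mammary gland (rho = 0.78; adjusted p = 0.0110 and 0.0330 by permutation, 19 relations; 0.71 without the 2 farthest libraries). Between hypothalamus and mammary gland r was 0.71 (adjusted p = 0.0422; rho = 0.60, adjusted p = 0.154; 0.49 without the 2 farthest), and between hypothalamus and pituitary 0.81 (adjusted p = 0.136; rho = 0.63, adjusted p = 0.154; 0.55 without the 2 farthest). Of 10488, 10069 and 11974 genes compared, 1.04%, 2.45% and 1.65% had an r as high. With only the treatment means removed, Gas5 had 0.75 between pituitary and mammary gland (adjusted p = 0.0598), 0.43 between hypothalamus and mammary gland (adjusted p = 0.341) and 0.76 between hypothalamus and pituitary (adjusted p = 0.0142), so which pairs passed depended on the centring. Snhg11 had r = −0.78 between hypothalamus and pituitary with the set means removed (adjusted p = 0.0110; rho = −0.76, adjusted p = 0.0330), lower than 99.9% of genes, and 0.33 (adjusted p = 0.369) with only the treatment means removed.

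**Figure D4:**
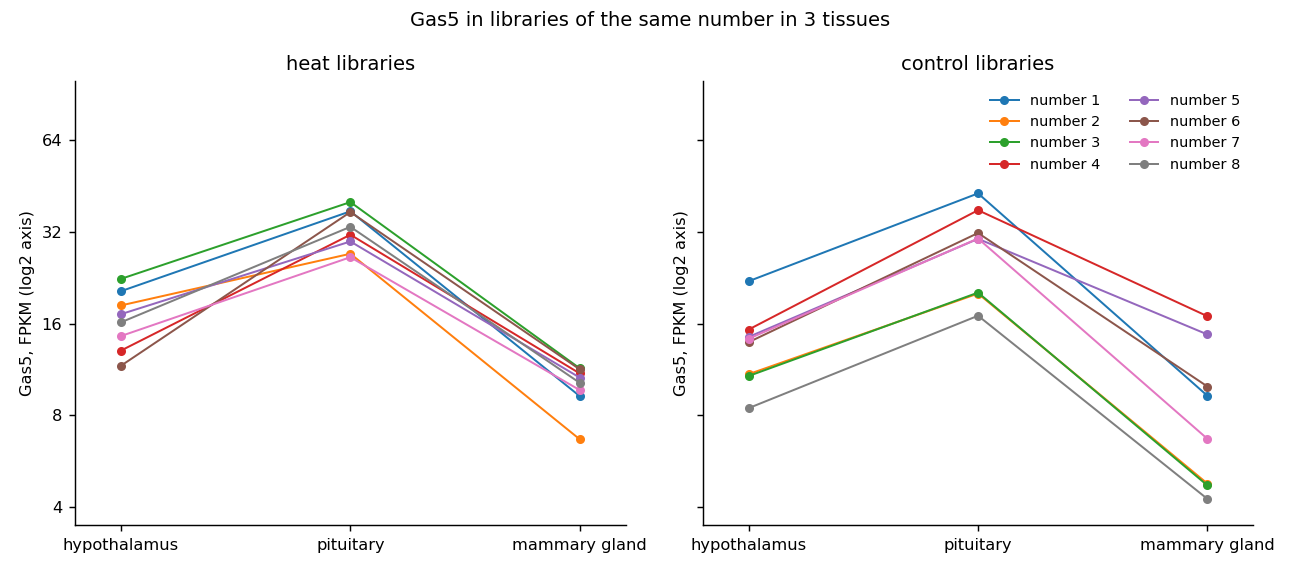
Gas5 in heat (left) and control (right) libraries, FPKM on a log2 axis; lines join libraries that carry the same number in the 3 tissues. Control numbers 2, 3 and 8 are the lowest in each tissue, and the control lines spread wider than the heat lines in mammary gland (4.26 to 16.9 against 6.68 to 11.4 FPKM).

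The spread between libraries of 1 group set the genes apart as well. On the log2 scale the SD within groups of Snhg1 was 0.11, 0.19 and 0.18 in hypothalamus, pituitary and mammary gland, and 17.6%, 40.2% and 23.96% of genes at a like level (within 0.5 log2 units) had a smaller one. Snhg11 had 0.75 and 0.94 in hypothalamus and pituitary, wider than 98.2% and 99.4% of such genes, and Neat1 and Malat1 in mammary gland 0.91 and 0.68, wider than 96.8% and 96.0%. In mammary gland these last 2 went together (r = 0.72 over 16 libraries, adjusted p = 0.0467; rho = 0.55, adjusted p = 0.205), and r was 0.48 without the 2 libraries farthest in Neat1 and 0.78 within the library sets.

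The genes most like each member were found by the correlation of deviations from the group means over 48 libraries, among 9681 genes with at least 1 FPKM in every tissue, which leaves out Meg3 and Snhg11. These r values are the largest of many and carry no test. Neat1 was most like Srsf5 (r = 0.86), an SR splicing factor gene, and the microRNA host Mir22hg had 0.74 with it. The likeness of Neat1 and Srsf5 was 0.67 in hypothalamus, 0.90 in pituitary and 0.93 in mammary gland. Srsf5 itself fell in pituitary (−0.63, adjusted p = 0.00357) and had −0.26 and −0.64 in hypothalamus and mammary gland (adjusted p = 0.611 and 0.0670). Snhg8 was most like 3 ribosomal protein genes, Rpl38 (0.84), Rps23 (0.82) and Rps29 (0.82), and this was 0.67, 0.62 and 0.70 within the library sets. Malat1 was most like Utp11 (0.68), a gene of ribosomal RNA processing, Nupl2 (0.65) and Rbm34 (0.63). For Gas5, Snhg1 and Snhg12 the largest r was 0.56, 0.56 and 0.61. Snhg5, another host, had 0.53 with Gas5, Taf1d, a gene of the RNA polymerase I machinery, 0.56 with Snhg1, and Mphosph6, of the RNA exosome, 0.60 with Snhg12. Mrps9 and Ppie had 0.56 and 0.55 with Gas5, Iqcb1 and Ufd1 0.56 and 0.55 with Snhg1, and Mdp1 and Ppie 0.61 and 0.60 with Snhg12.

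**Figure D5:**
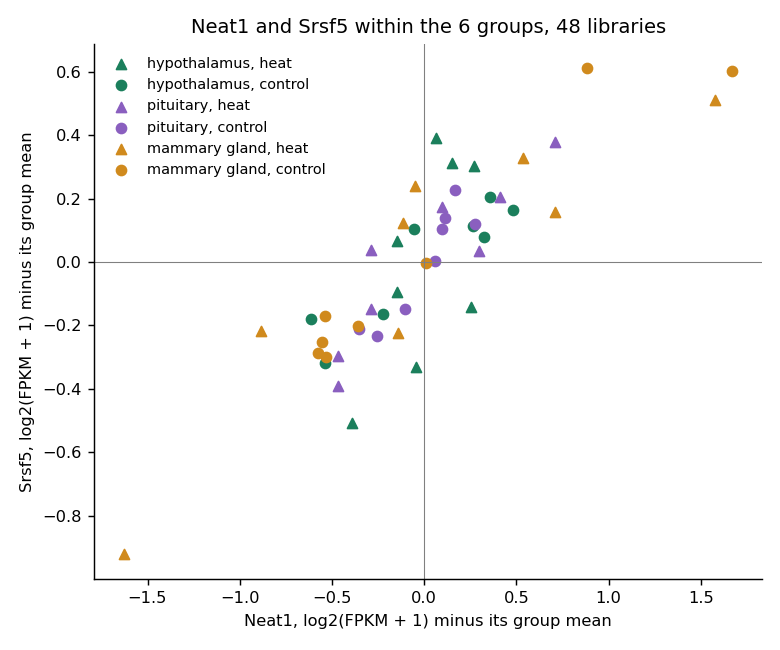
Neat1 against Srsf5, each as log2(FPKM + 1) minus the mean of its tissue and treatment group; points are the 48 libraries, coloured by tissue, triangles heat and circles control. Both genes rise together in each tissue (r = 0.67 in hypothalamus, 0.90 in pituitary, 0.93 in mammary gland), with mammary libraries at both ends.

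Genes that work with these RNAs changed in a few cases. Of 16 paraspeckle protein genes, 0 rose and 1 fell in hypothalamus, 1 rose and 3 fell in pituitary, and 1 rose and 0 fell in mammary gland, where 0.559% and 0.122%, 2.37% and 1.42%, and 2.84% and 2.47% of all genes rose and fell. Rbm14, needed to build paraspeckles, rose to 8.04 ± 0.67 FPKM in heat, against 4.66 ± 0.71 in control pituitary (log2 change 0.69, adjusted p = 0.000124), and to 7.01 ± 0.67 FPKM in heat, against 3.98 ± 0.66 FPKM in control mammary gland (0.71, adjusted p = 0.000316). Cirbp, a cold-inducible RNA-binding protein gene, fell in hypothalamus (−0.46) and pituitary (−1.02), and Pspc1 (−0.36) and Rbmx (−0.27) fell in pituitary. The median log2 difference of the 16 was −0.01, 0.00 and −0.01, near that of all genes.

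Among 16 other snoRNA host genes 13 were found, and 10, 9 and 8 passed the filter. Zfas1 rose in mammary gland to 6.73 ± 1.62 FPKM in heat, against 3.99 ± 0.88 in control libraries (0.64, adjusted p = 0.0142), and Snhg15 fell in pituitary to 2.02 ± 0.37 FPKM in heat, against 2.88 ± 0.46 FPKM in control libraries (−0.35, adjusted p = 0.0383). In hypothalamus 0 passed and Snhg5 had the smallest adjusted p (0.14, adjusted p = 0.456). Of 19 other nuclear lncRNA genes 16 were found and 9, 7 and 5 tested, and 1 passed: Xist, the RNA of X inactivation, rose in mammary gland (39.2 ± 3.78 FPKM in heat, 32.4 ± 3.11 FPKM in control libraries; 0.28, adjusted p = 0.0461). Rn7sk had the smallest adjusted p in the other tissues (0.57 and 0.58; adjusted p = 0.407 and 0.316). Of 17 tested genes for snoRNP proteins, which bind and mature snoRNAs, 0 rose or fell in hypothalamus and pituitary, and Rpap3, an assembly factor, fell in mammary gland (−0.36, adjusted p = 0.0341). Of 15 genes of nonsense-mediated decay, 0 changed in hypothalamus, and 2 rose in pituitary and 2 in mammary gland. Smg1, the kinase that starts decay, rose in both (0.41 and 0.61; adjusted p = 0.0107 and 0.00197), Smg6, its endonuclease, in pituitary (0.21, adjusted p = 0.0392), and Rbm8a, of the exon junction complex, in mammary gland (0.41, adjusted p = 0.0184). The median sum of lymphocyte markers in mammary gland was 40.5 FPKM in heat and 4.58 FPKM in control libraries. Without the 5 lymphocyte-rich libraries, 1 of the 6 calls in mammary gland among these lists remained, that of Rbm14 (0.69, adjusted p = 0.0107), while Zfas1 had 0.56 (adjusted p = 0.229), Smg1 0.39 (0.148) and Xist 0.24 (0.421), the named genes keeping their sign in a smaller set of libraries. Over all genes, 47 were called without those 5 mammary libraries, against 668 in the main fit. Without the 2 pituitary libraries low in neurointermediate lobe markers, 5 of 7 calls in pituitary remained. Those of Snhg15 (−0.30, adjusted p = 0.0771) and Smg6 (0.21, adjusted p = 0.0594) did not. In that pituitary setting 633 of all genes were called, against 534 in the main fit.

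The small RNAs inside the hosts were nearly unseen. GENCODE M21 lists 34 small RNA genes inside the 8 hosts, 10 of them in Gas5, 8 in Snhg1 and 5 in Snhg12, and 32 of the 34 had 0 fragments in all 48 libraries. Of the 34, all but 2 lie inside exons annotated for the host, where a read can fall in both genes, so 0 fragments do not show that the small RNA was absent. An intronic snoRNA gene of Snhg11, Gm25129, was above 0 in 31 libraries, with 5.28 to 28.3 FPKM in heat and 6.15 to 33.7 FPKM in control hypothalamus, 0 to 2.02 and 0 to 3.89 in pituitary, and in 1 heat and 0 control libraries of mammary gland, the same order of tissues as its host. The other, Snora16a in Snhg12, had 2 fragments in all. Between 1.56% (Snhg11) and 20.9% (Snhg1) of the exon bases of the 8 genes are shared with other annotated genes, and whether counting used strand is not given in the sources used here, so reads there may have been left out or assigned elsewhere.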

How the data were processed

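The authors deposited FPKM for every gene of each library, on a scale already shared by the libraries, since each had a median ratio of 1.01 to the gene-wise geometric means (13815 genes). Per the submitters' processing notes, HISAT2 2.0.5, featureCounts 1.5.0-p3 and DESeq2 1.16.1 were used with build mm9. Exon lengths of GENCODE M21 gave whole fragments (94.7 to 96.9% of values under 50 fragments within 0.02). For Snhg12 the M21 length of 2402 bases did not. Its fragments were taken from 1626 bases, the shortest length tried that gave whole fragments, which is inferred and not stated by the authors. File coordinates are therefore not given; start sites are RefSeq's. Of the gene IDs 53274 had a symbol in the reference tables. No 2 libraries held identical values.

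Per tissue, libraries were divided by their median ratio, genes with mean FPKM of at least 1 kept, and log2(FPKM + 1), which understates changes of low genes, fitted with limma 3.58.1 (R 4.3.3, trend, 2-sided, adjusted p under 0.05), 8 heat against 8 control libraries grouped by title. Tissues were compared over 24 control libraries and heat by tissue over 48. The limma step was tested on simulated data. The labels call the libraries biological replicates; p-values measure the spread between them. The tissue fits treat libraries as independent, although every dam gave all 3 tissues. Equally numbered libraries of 1 treatment correlated between tissues, with median r 0.54 (0.047 to 0.69) for hypothalamus and pituitary. It was 0.30 (0.15 to 0.53) for hypothalamus and mammary gland, and 0.29 (0.16 to 0.50) for pituitary and mammary gland. With library set means also removed, the medians were 0.31 (−0.16 to 0.41), 0.19 (0.063 to 0.30) and 0.20 (0.13 to 0.44). Deviations of equally numbered heat and control libraries correlated with median r 0.38 (0.065 to 0.70) in hypothalamus. In pituitary it was 0.28 (−0.02 to 0.50) and in mammary gland 0.0008 (−0.10 to 0.34). Library set means were not removed for these values. They therefore do not settle whether numbers pair the treatments, and the main fits used no pairing. Correlations used 100000 permutations (Python 3.11.15, scipy 1.17.1). Members and lists were chosen with earlier results of these data known. Named were all 8 members, from each other list the 2 called genes with the largest change per tissue or, with none called, the 1 of smallest adjusted p, the 3 genes most like each member, hosted snoRNA genes, and Hspa1b and Dnajb1; Rbmx, Pspc1, Rian and Dlk1 were named after their values were seen. A gene chosen in this way is not reported here and was left out of the list counts. The alternatives that added a library set term to a marker score, left out the lymphocyte-rich libraries or control libraries 4 and 5, or used FPKM per library total were chosen after seeing the data.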

Additional observations from a re-analysis of the deposited data

Results flagged for a closer look

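Among the 48 groups of 8 libraries checked, 5 held a library far from the other 7 (Dixon's test at 95%, which chance passes in about 1 of 20 groups). Neat1 in control mammary gland was 54.6 FPKM in library 4, with 30.8 next. Gas5 in heat mammary gland was 6.68 FPKM in library 2, below a next value of 9.25. Snhg12 in control hypothalamus was 4.88 FPKM in library 6, below a next value of 7.82. Meg3 in heat hypothalamus was 0.400 FPKM in library 8, with 0.181 next. Meg3 in control mammary gland was 0.00718 FPKM in library 6, a single fragment where the others had 0.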

How the results depend on the processing

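Over the alternatives run, the heat differences of the 8 genes kept direction and side of the threshold in 605 of 695 cases, became calls in 5 and changed sign in 85, none of them past the threshold. A call appeared for 1 gene in hypothalamus, Neat1, with array weights, in numbers 4 to 8 alone and with the neuron score with or without a library set term, and for 1 in pituitary, Malat1, with array weights; the cause was not tested. Signs changed (log2, heat minus control) for Snhg1 in pituitary to −0.0033 as deposited and in 1 fit of all 48 libraries, −0.025 with quantile normalization, −0.107 per library total, −0.117 in numbers 1 to 3 and −0.019 without the libraries apart in lobe markers. In hypothalamus they changed for Snhg1 to 0.0076 and Snhg8 to 0.054 with array weights, for Snhg8 to 0.032 and Snhg11 to −0.042 with the neuron score, for Snhg8 to 0.0055 with the set term added, and for Snhg11 to −0.023 in numbers 1 to 3. In pituitary they changed for Malat1 to 0.023 and Snhg11 to 0.262 in numbers 1 to 3, for Snhg8 to 0.058 in numbers 4 to 8, to 0.102 with the lobe score and to 0.043 with the set term added, and for Snhg11 to 0.033 with array weights. In mammary gland Neat1 changed to 0.668 in numbers 1 to 3 and 0.152 without the lymphocyte-rich libraries. Malat1 there changed to 0.242 and 0.255 in the same 2 settings, 0.022 per library total, 0.105 with array weights, 0.120 with the lymphocyte score, 0.182 without control libraries 4 and 5 and 0.0088 with limma-voom. Snhg1 changed to 0.021 in numbers 4 to 8 and 0.019 without control libraries 4 and 5, Snhg12 to −0.0028 in numbers 4 to 8 and −0.030 with the lymphocyte score and set term, and Snhg8 to −0.101 with that score and term. Between tissues, 633 of 651 cases kept both; Malat1 for mammary gland minus pituitary changed to −0.0067 as deposited, −0.992 with quantile normalization and −1.90 per library total, and for mammary gland minus hypothalamus per library total Malat1 changed to −0.110 and Snhg1 to −0.377. Leaving out 1 library at a time gave −0.038 to 0.016 for Snhg1, −0.100 to 0.047 for Snhg8 and −0.131 to 0.237 for Snhg11 in hypothalamus, −0.034 to 0.049, −0.079 to 0.041 and −0.264 to 0.163 in pituitary, and −0.172 to 0.147 for Malat1, −0.076 to 0.0074 for Snhg1 and −0.018 to 0.142 for Snhg8 in mammary gland. It gave −0.134 to 0.142 for Malat1 in mammary gland minus pituitary and −0.152 to 0.00074 for Snhg8 in mammary gland minus hypothalamus. Snhg8 in mammary gland minus hypothalamus became a call per library total (−1.48). Snhg12 in pituitary minus hypothalamus became a call with quantile normalization, per library total, with the replicate block and without control mammary library 5, which shares the fit.

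Counts over all genes moved more. In hypothalamus, 95 became 61 with no filter, 57 with a filter of 5, 1160 with array weights, 486 with the set term, 422 in numbers 4 to 8, 358 and 488 with the neuron score without and with the set term, and 19 in 1 fit of all libraries. In pituitary, 534 became 214 with a filter of 5, 1399 with weights, 1721 with the set term, 1391 in numbers 4 to 8 and 965 with the lobe score and set term. In mammary gland, 668 became 272 per library total, 411 with no filter, 364 with a filter of 5, 361 in numbers 4 to 8, 292 and 380 with the lymphocyte score without and with the set term, 47 without the lymphocyte-rich libraries and 2043 in 1 fit of all libraries. Numbers 1 to 3 alone gave 0 in each tissue. Leaving out 1 library gave 46 to 134, 334 to 904 and 415 to 762. With the replicate number as a term in the fit of each tissue, 281, 1213 and 634 genes were called and 0 of the 8. The heat by tissue test instead took libraries of the same treatment and number as a block across tissues (correlation within a block 0.215). It called 766 genes, against 1104 with the set term and 313 without either. Equally numbered heat and control libraries went together in part in hypothalamus and pituitary, with library set means not removed, and hardly in mammary gland. Between tissues equal numbers went together in part. With no filter 19045, 21677 and 20430 genes differed between tissues. Precision is limited by 8 libraries a group, and for Meg3 and for Snhg11 in mammary gland by few fragments.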
